A study of Caenorhabditis elegans with 16 samples.

Results

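Cathepsins are the proteases that digest protein in the acid interior of the lysosome, and in the nematode gut they also digest food. They fall into an aspartic class, related to pepsin and cathepsin D, and a cysteine class, related to cathepsins B, L and Z. Most are made as inactive precursors that mature at low pH, and the cysteine class is held in check by small inhibitor proteins, the cystatins. In Caenorhabditis elegans many of these genes are expressed in the intestine, the organ that takes up food and stores nutrients.

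The genes described here are 7 named cathepsin genes, 2 aspartic (asp-4 and asp-5) and 5 of the cathepsin B family (cpr-1, cpr-3, cpr-4, cpr-5 and cpr-6). They were taken by name from the 3698 genes that at least one of the deposited tables lists. All 7 stand in the table for 20°C and 3 of them (cpr-3, cpr-4 and cpr-5) in the table for heat shock. A gene is listed only where the authors' own comparison of fasted with fed worms gave an unadjusted p under 0.05. This held for 2666 genes at 20°C and 1442 genes after heat shock. Being listed therefore came from the same contrast that is tested here, and asp-4, asp-5, cpr-1 and cpr-6 after heat shock were not analysed here. The authors adjusted over 14982 genes at 20°C and 15456 after heat shock, which leave out 47 and 41 of the listed genes.

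RNA was sequenced from whole N2 (wild-type) worms grown on OP50 bacteria at 20°C, with 4 libraries in each of 4 groups. The groups were fasted and fed worms without heat shock (basal, 20°C), and fasted and fed worms given 30 min at 35°C in a water bath (heat shock). Fasted worms were moved to plates without food for 24 h from the mid-L4 stage, the last larval stage. The sample labels place 24 h of recovery after the fast, whereas the methods of the study place collection at its end (0 h), and the conflict could not be settled from the tables. Library reads ran from 15859001 to 26398842 at 20°C and from 17071113 to 24718844 after heat shock, and the sources do not say whether replicate libraries stem from different cultures of worms. The p-values therefore rest on a spread between libraries that may be technical.

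All 7 genes are protein-coding, and they are not clustered. In the coordinates of the deposited tables (WBcel235), asp-5 (F21F8.3) lies on chromosome V from 8272375 to 8274047 on the + strand, cpr-1 (C52E4.1) on V from 11975515 to 11976759 (+) and cpr-4 (F44C4.3) on V from 6614674 to 6615845 (+). On the - strand of V lie cpr-3 (T10H4.12), from 15296834 to 15298676, and cpr-5 (W07B8.5), from 1132597 to 1133993. On the X chromosome lie asp-4 (R12H7.2), from 13218977 to 13221469 (-), and cpr-6 (C25B8.3), from 6607203 to 6609046 (+). Their counted lengths were alike, from 1117 bases in cpr-1 to 1475 bases in asp-4, while the number of exons in the Ensembl annotation ran from 2 in cpr-4 to 8 in cpr-6. The closest pair, cpr-4 and asp-5, is 1657 kb apart. A further cathepsin B family gene, cpr-8, lies 609 bases from cpr-5. R12H7.4, on the opposite strand, overlaps 41 bases of asp-4, and the sources do not state that strand was kept in the counting, so reads from those bases cannot be assigned to either gene.

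At 20°C the cathepsin genes moved in both directions. cpr-4 and cpr-5 rose in fasted worms, about 1.91-fold and 2.19-fold, and asp-5 fell to 0.55 of its fed level. asp-4, cpr-1 and cpr-6 had lower means in fasted worms without passing, and cpr-3 had a slightly higher mean. So 3 of 7 passed with edgeR (adjusted p under 0.05), 2 of them higher and 1 lower, where over all 14982 genes 1.92% were called higher and 0.534% lower. Only the 2666 listed genes could be called, as all others entered as a p of 1. Of these listed genes, 288 were called higher and 80 lower. The 7 genes come from that list, so the shares over all genes are too low a comparison for them. With the replicate number as a block, asp-4, cpr-1 and cpr-6 passed too, which made 6 of 7 (2 higher, 4 lower), against 3.69% of all genes called higher and 0.888% lower in that fit. Among the 2666 listed genes that fit called 553 higher and 133 lower. The pairing by number behind the block was taken from the data and not from the design. The RNA is from whole worms, in which fewer cells of a type and less RNA per cell cannot be told apart.

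cpr-5, a cathepsin B family gene, had the largest fold change of the 7. Its normalized counts (reads divided by the authors' size factor of the library) were 10545, 6573, 10458 and 7289 in fasted replicates 1 to 4, against 4339, 3043, 2713 and 5846 in fed replicates 1 to 4. The groups did not overlap, although fed replicate 4 came close to fasted replicate 2. The means were 8716 ± 2082 in fasted and 3985 ± 1425 in fed worms (SD, n = 4 libraries each). Its log2 fold change was 1.13 (SE 0.25, adjusted p = 0.0448 from edgeR, 0.030 with the block).

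cpr-4 encodes a cathepsin B-like protease that is known to be secreted in this worm after irradiation. It had 8677, 5203, 10084 and 6048 normalized counts in fasted replicates 1 to 4, against 4635, 3268, 3674 and 4149 in the fed replicates. Fasted replicates 1 and 3 were well above all others, and the groups did not overlap. The means of 7503 ± 2269 in fasted and 3931 ± 591 in fed worms (SD, n = 4 each) gave a log2 fold change of 0.93 (SE 0.20, adjusted p = 0.0437 from edgeR, 0.019 with the block).

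cpr-3, the least expressed of the family members here, had 264, 266, 297 and 228 normalized counts in fasted worms, against 185, 191, 240.03 and 179 in fed worms. Fed replicate 3 lay among the fasted libraries. The log2 fold change was 0.41 (SE 0.16, adjusted p = 0.25 from edgeR, 0.14 with the block), and an exact permutation test gave p = 0.057 (two-sided).

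asp-5, an aspartic protease gene of the pepsin and cathepsin D family, had 4047, 2585, 4400.1 and 2953 normalized counts in fasted replicates 1 to 4, against 5429.8, 5862, 7682 and 6460.4 in the fed replicates. All fasted libraries lay below all fed libraries. It fell to 3496 ± 865 in fasted worms, against 6358 ± 978 in fed worms (SD, n = 4 each), a log2 fold change of -0.86 (SE 0.18, adjusted p = 0.0366 from edgeR, 0.013 with the block).

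asp-4, the cathepsin D-like gene known in this worm for a role in necrotic death of neurons, had 8105, 6958, 7887 and 7462 normalized counts in fasted worms, against 11442, 9695, 12523 and 8966 in fed worms. The groups did not overlap, and the fasted libraries were the tightest of any group at 20°C, with a coefficient of variation of 6.66%. The log2 fold change was -0.49 (SE 0.12, adjusted p = 0.067 from edgeR, 0.034 with the block).

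cpr-6, a cathepsin B homologue and the most abundant of the 7, had 16865, 13622, 20341 and 16314 normalized counts in fasted worms, against 24028, 22373, 25722 and 22240.5 in fed worms. Again all fasted libraries were below all fed ones. The log2 fold change of -0.49 (SE 0.13) came with adjusted p = 0.075 from edgeR, and 0.025 with the block.

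cpr-1, the gut cysteine protease gene, had 2054, 1210.3, 2148 and 1497 normalized counts in fasted worms, against 3006, 2119.9, 3360.5 and 3173 in fed worms. Fasted replicate 3 and fed replicate 2 overlapped by a small margin, and the exact permutation p was 0.057 (two-sided). The log2 fold change was -0.75 (SE 0.20, adjusted p = 0.088 from edgeR, 0.011 with the block).

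**Figure D1:**
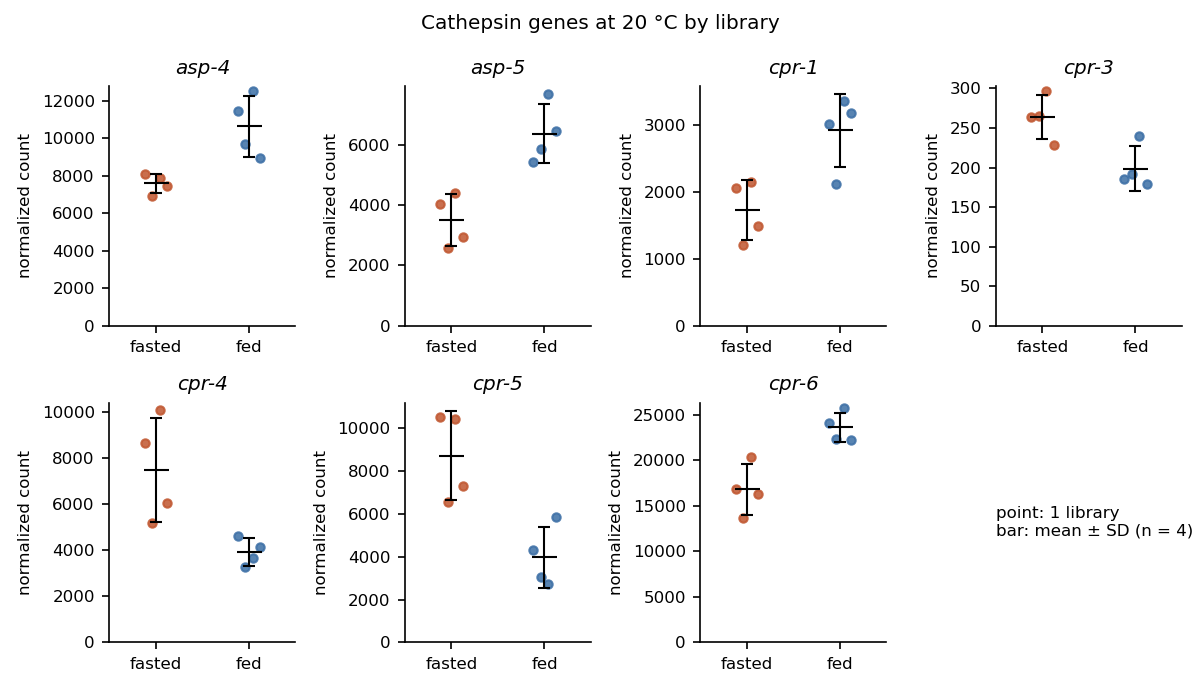
Normalized counts of the 7 cathepsin genes at 20°C, 1 panel per gene with its own axis from 0; each point is a library and the bar is the mean ± SD of 4 fasted or 4 fed libraries. Fasted and fed libraries do not overlap for asp-4, asp-5, cpr-4, cpr-5 and cpr-6, and overlap for cpr-1 and cpr-3.

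Fasted and fed libraries thus did not overlap in 5 of the 7 genes, each with an exact permutation p of 0.029 (two-sided, n = 4 each), the smallest that 4 libraries against 4 allow. With single 20°C libraries left out, asp-5 alone of these 5 kept an exact permutation p under 0.05 in every case. Of all 2666 genes listed at 20°C, 52.9% had groups that did not overlap. The median log2 fold change of the 7 was -0.49, against 0.57 over all listed genes. The calls were close to the threshold. With each library left out in turn, asp-5 passed only without fasted replicate 3, cpr-4 only without fasted replicate 2, and cpr-5 only without fasted replicate 2 or fed replicate 4, while their log2 fold changes stayed between -0.99 and -0.74 (asp-5), 0.76 and 1.07 (cpr-4) and 0.98 and 1.37 (cpr-5). Of those that had not passed, asp-4 did without fed replicate 4 and cpr-6 without fasted replicate 3 (adjusted p = 0.035 and 0.028 from edgeR). Scaling to the listed genes alone, by TMM, moved the median of all listed genes by -0.19 on the log2 scale. Under it asp-4, asp-5, cpr-1 and cpr-6 passed (adjusted p from edgeR between 0.0077 and 0.024) and cpr-4 and cpr-5 did not (adjusted p = 0.078 and 0.061 from edgeR). The same swap came with DESeq2 size factors over the listed genes (cpr-4 0.53, adjusted p = 0.27, and cpr-5 0.74, adjusted p = 0.099, from edgeR) and with a correction for gene length (cpr-4 0.57, adjusted p = 0.091, and cpr-5 0.80, adjusted p = 0.052, from edgeR). With limma, cpr-4 did not pass (adjusted p = 0.075 on log2(FPKM + 1)).

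**Figure D2:**
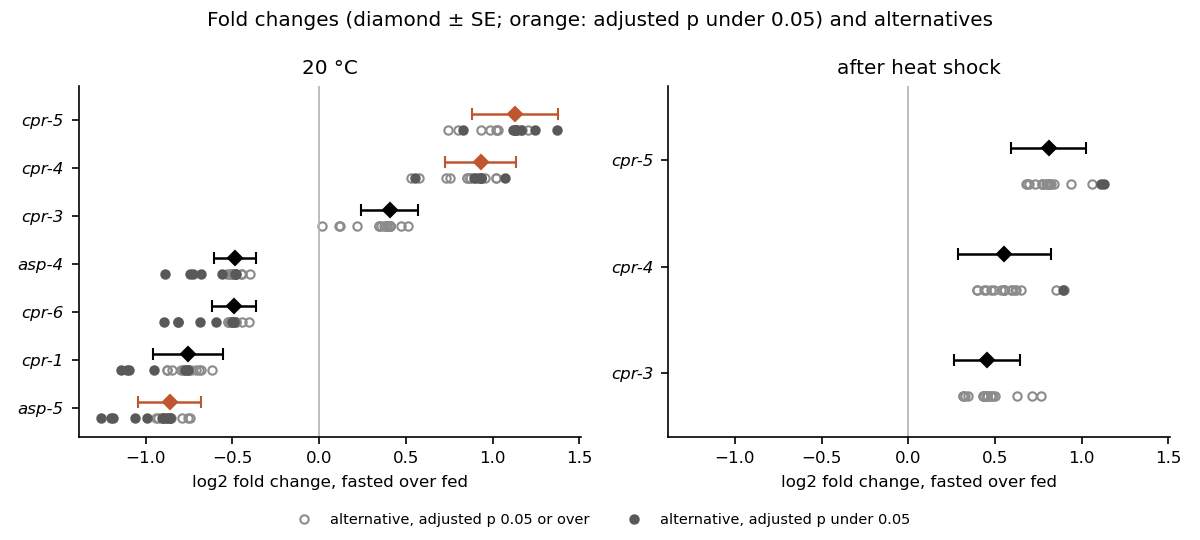
Log2 fold change of fasted over fed worms for the 7 genes listed at 20°C and the 3 listed after heat shock; diamonds with bars are the edgeR estimate ± SE (orange where the adjusted p is under 0.05), and circles are the same gene under each alternative. No gene changes sign in either comparison, but which of them pass differs between alternatives.

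Ratios between genes within a library do not depend on how libraries were scaled, and the pairs given here were chosen after their values were seen. The reads of cpr-6 were 1.60, 2.07, 1.94 and 2.24 times those of cpr-5 in fasted replicates 1 to 4, against 5.54, 7.35, 9.48 and 3.80 times in the fed replicates. The reads of cpr-1 were 0.237, 0.233, 0.213 and 0.248 of those of cpr-4 in fasted worms, against 0.649, 0.649, 0.915 and 0.765 in fed worms. Neither ratio overlapped between the groups. For cpr-6 over cpr-5 this follows from the separation of each gene in opposite directions, and it adds no support. The share of other gene pairs whose ratios do not overlap was not computed. Between cpr-6 and asp-4, which both had lower means in fasted worms, the ratio ran from 1.96 to 2.58 in fasted and from 2.05 to 2.48 in fed worms. The reads of all 7 genes summed to 1852 to 2957 CPM (counts scaled to the total reads of the library) in fasted and 2470.3 to 2893 CPM in fed worms, and these ranges overlapped.

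Levels were compared between genes as FPKM, which accounts for gene length. In fasted worms at 20°C cpr-6 was highest with 679.9 ± 128 FPKM, followed by cpr-5 (384 ± 97.3), cpr-4 (343 ± 111), asp-4 (264 ± 20.6), asp-5 (143 ± 38.2), cpr-1 (79.3 ± 21.9) and cpr-3 (10.04 ± 1.33, SD, n = 4 each). The FPKM ranges of cpr-5 and cpr-4 overlapped in fasted worms, as did those of cpr-4 and asp-4, while the other neighbours in this order were apart. In fed worms the order was cpr-6 (969 ± 72.8), asp-4 (376 ± 59.7), asp-5 (263 ± 38.3), cpr-4 (182 ± 26.9), cpr-5 (177 ± 59.9), cpr-1 (135 ± 23.9) and cpr-3 (7.68 ± 1.1, SD, n = 4 each). Here asp-4 overlapped with asp-5, cpr-4 with cpr-5, and cpr-5 with cpr-1. cpr-4 and cpr-5 thus had higher mean FPKM than asp-4 and asp-5 in fasted worms and lower mean FPKM than both in fed worms.

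**Figure D3:**
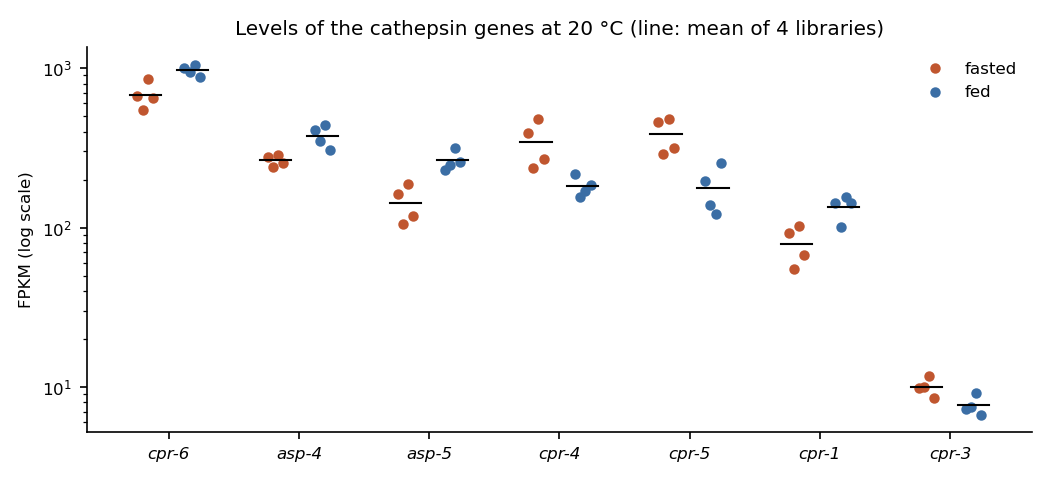
FPKM of the 7 genes at 20°C on a log axis, ordered by their mean in fed worms; points are the 4 fasted and 4 fed libraries and lines their means. cpr-6 is the highest in both groups and cpr-3 the lowest, about 10.04 FPKM in fasted and 7.68 FPKM in fed worms.

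Libraries also differed within the groups, and several genes moved together there. After each gene's log2 normalized counts were centred on its group means, cpr-4 and cpr-1 correlated across the 8 libraries at a Pearson r of 0.87, asp-5 and cpr-1 at 0.84, asp-5 and cpr-6 at 0.82, and cpr-4 and cpr-5 at 0.75. cpr-5 and cpr-3 correlated at -0.30, and cpr-5 and asp-4 at -0.24. These are descriptions over 8 libraries that share their depth and size factors. Fasted replicate 2 was the lowest fasted library in 6 of the 7 genes, cpr-3 being the exception.

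The listed genes with a mean of at least 50 normalized counts whose centred pattern was most like each cathepsin gene were R13H4.5 for cpr-5 (r = 0.98), F14H12.3 for asp-5 (r = 0.98), zip-5 for cpr-4 (r = 0.96), snb-2 for asp-4 (r = 0.92), DC2.5 for cpr-1 (r = 0.97), ugt-23 for cpr-6 (r = 0.96) and lipl-5 for cpr-3 (r = 0.97). Each is the best of 1864 genes over 8 libraries. The next most alike were F47F2.1 and hex-5 for cpr-5, gale-1 and clec-265 for asp-5, nspg-12 and F58A6.1 for cpr-4, prx-12 and T05G5.1 for asp-4, F58A6.1 and clc-24 for cpr-1, B0393.9 and pqn-75 for cpr-6, and H11L12.1 and clec-65 for cpr-3, with r between 0.90 and 0.97. F58A6.1 was thus among the 3 most alike for both cpr-4 and cpr-1. No cathepsin gene was among the 3 most alike of another.

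Other genes of the 2 protease classes were listed at 20°C as well. Of 16 aspartic protease genes, 5 were listed (1 higher and 4 lower means) and asp-5 alone passed with edgeR, while DESeq2 also called asp-4, asp-14 and asp-17 lower (4 of 5). DESeq2 called 659 of the 2666 listed genes higher and 215 lower. Listing itself rested on the authors' DESeq2 p in the same contrast, so these and the later DESeq2 calls add no independent support. asp-14 had a log2 fold change of -0.62 (SE 0.18, adjusted p = 0.13 from edgeR, 0.032 with the block) and asp-17, with few reads, of -1.90 (SE 0.51, adjusted p = 0.088 from edgeR, 0.032 with the block). The median over the 5 was -0.62, against 0.57 over all listed genes. Of 25 cysteine protease genes, 8 were listed (5 higher and 3 lower means, median log2 fold change 0.64), of which edgeR called cpr-4 and cpr-5 higher and cpz-1 lower, and DESeq2 6 of the 8 (3 higher, 3 lower).

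cpz-1, the cathepsin Z gene known for its part in molting, had 6905, 6931, 8772 and 6953 normalized counts in fasted worms, against 13440, 11902, 11611 and 12665 in fed worms. The groups were far apart, and its log2 fold change of -0.75 (SE 0.11, adjusted p = 0.0084 from edgeR) passed without any one of the libraries. cpr-8, the neighbour of cpr-5, had 231 to 374 normalized counts in fasted and 98.6 to 219 in fed worms, a log2 fold change of 0.94 (SE 0.27, adjusted p = 0.12 from edgeR). It passed with the block and with DESeq2. The sources used here do not say how reads shared between similar family members were counted.

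Of the 2 cystatin genes, whose products inhibit cysteine cathepsins, cpi-1 was listed. It had 583, 408, 853 and 633 normalized counts in fasted worms, against 1083, 1262, 2375 and 1139 in fed worms, without overlap. Its log2 fold change was -1.24 (SE 0.29, adjusted p = 0.051 from edgeR, 0.0077 with the block), and DESeq2 called it lower. Of 13 lysosomal carboxypeptidase and legumain genes, 4 were listed, all with higher means in fasted worms and a median of 0.72, and 0 passed with edgeR (4 at an unadjusted p under 0.05, which 89.5% of all genes listed at 20°C had). DESeq2 called pcp-3, ctsa-2 and pcp-1 higher, and edgeR with the length correction pcp-3 and ctsa-2. The 4 genes were pcp-3 (log2 fold change 1.09, SE 0.29, adjusted p = 0.084 from edgeR, 0.036 with the block) and pcp-1 (0.53, SE 0.16), of the prolyl carboxypeptidase family, and ctsa-2 (0.91, SE 0.25) and ctsa-3.1 (0.50, SE 0.17), named for cathepsin A.

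Of 20 genes of the lysosomal membrane and of traffic to it, 4 were listed (1 higher and 3 lower means, median -0.28). cln-3.1, a homologue of the lysosomal membrane protein gene mutated in human Batten disease, rose to 191 ± 42.3 normalized counts in fasted worms, against 89.3 ± 19.8 in fed worms (SD, n = 4 each, log2 fold change 1.1, SE 0.23, adjusted p = 0.037 from edgeR). With each library left out in turn, cln-3.1 kept its pass in 2 of 8 fits. The mucolipin gene cup-5 had a log2 fold change of -0.32 (SE 0.12), and vps-33.1 and vps-39, of the tethering complexes that fuse vesicles with lysosomes, of -0.31 (SE 0.12) and -0.24 (SE 0.10). Of 10 transcription factor genes known to act on gut or lysosome genes, 2 were listed and 0 passed with edgeR (2 at an unadjusted p under 0.05), while DESeq2 called pqm-1 higher. mxl-3, which in this worm represses lysosomal lipase genes in the presence of food, had a log2 fold change of 0.63 (SE 0.22), and pqm-1 of 0.71 (SE 0.21).

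**Figure D4:**
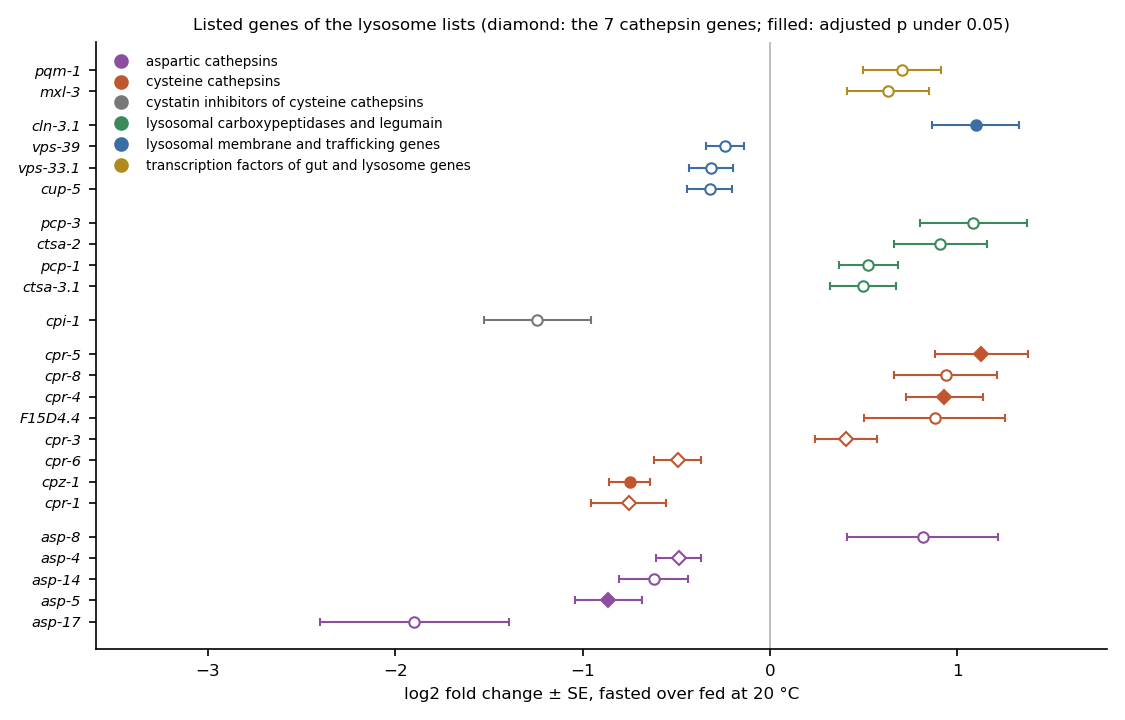
Log2 fold change ± SE of fasted over fed worms at 20°C for every listed gene of the protease, inhibitor and lysosome lists, coloured by list, with diamonds for the 7 cathepsin genes and filled symbols for an adjusted p under 0.05 from edgeR. asp-5 and cpz-1 are the filled symbols below 0, and cpr-4, cpr-5 and cln-3.1 those above it.

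Markers of several tissues differed between the same libraries. Of 11 intestine markers, 8 were listed at 20°C (7 higher, 1 lower), and their reads summed to 1092 to 1256 CPM in fasted and 561 to 745 CPM in fed worms. Of these, act-5, pho-1, lbp-6 and ifb-2 rose, with log2 fold changes of 1.03, 1.26, 1.13 and 0.87 (adjusted p between 0.0026 and 0.021 from edgeR). The marker with a lower mean, mtl-2, had a log2 fold change of -1.30 (SE 0.39, adjusted p = 0.13 from edgeR). DESeq2 called mtl-2 lower, and the marker pept-1 higher as well. Of 8 body wall muscle markers, 7 were listed, all higher, with mup-2 and lev-11 passing, and their sums were 2243 to 3198 CPM in fasted and 1268 to 2108 CPM in fed worms. Of 6 hypodermis markers, 2 were listed, the collagen gene col-19, which rose (log2 fold change 1.69, adjusted p = 0.0027 from edgeR), and dpy-7 with a lower mean. Their reads summed to 378 to 584 CPM in fasted and 107 to 204 CPM in fed worms, without overlap. Of 7 pharynx markers 1 was listed (5.59 to 15.9 CPM in fasted and 3.40 to 7.47 CPM in fed worms), and of 8 neuron markers 3 (50.4 to 70.2 CPM in fasted and 32.4 to 51.2 CPM in fed worms), all with higher means and 0 passing with edgeR (4 of these 4 at an unadjusted p under 0.05), while DESeq2 called egl-3 higher. Of germline and coelomocyte markers 0 of 11 and 0 of 3 were listed. The part of these differences in the cathepsin values was not tested. Gene length moved with direction among the listed genes: 66.4% of the genes of 1095 to 1279 bases, which include 5 of the 7 cathepsin genes, had higher means in fasted worms, against 47.9% of the longest of 10 length groups.

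After heat shock the 3 listed cathepsin genes all had higher means in fasted worms, and 0 of 3 passed with edgeR (adjusted p under 0.05), as was so for 0% of all 15456 genes. At an unadjusted p under 0.05 from edgeR, 2 of 3 passed, as did 78.6% of the 1442 listed genes, which were listed for an unadjusted p under 0.05 in the same contrast. DESeq2 and limma also called 0 of the 3.

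cpr-5 had 6214, 6755, 6022 and 4192 normalized counts in fasted heat-shocked replicates 1 to 4, against 4852, 3016, 2336 and 3008 in the fed replicates. Fasted replicate 4 lay below fed replicate 1, and otherwise the groups were apart (exact permutation p = 0.057, two-sided). The log2 fold change was 0.81 (SE 0.22, unadjusted p = 0.0038 and adjusted p = 0.49 from edgeR). A correction for gene length, which moved the median of all listed genes by 0.27 on the log2 scale, gave 1.11 (SE 0.16, adjusted p = 0.030 from edgeR).

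cpr-4 had 5187, 4282, 6549 and 3938 normalized counts in fasted heat-shocked worms, against 5570.2, 2213, 2971 and 2836 in fed ones. Fed replicate 1 was above 3 of the 4 fasted libraries and the other fed libraries were below all of them. The log2 fold change was 0.55 (SE 0.27, adjusted p = 0.77 from edgeR), and 0.90 without fed replicate 1 (adjusted p = 0.33 from edgeR). cpr-3 had 432, 443, 579 and 453 normalized counts in fasted worms, against 255, 335, 469 and 336 in fed worms, with fed replicate 3 among the fasted libraries. Its log2 fold change was 0.45 (SE 0.19, adjusted p = 0.63 from edgeR). The groups overlapped in all 3 genes, whereas they did not in 35% of the 1442 genes listed after heat shock. Of the genes of 991 to 1177 bases, among them cpr-4 and cpr-5, 53.1% had higher means in fasted worms, against 17.9% of the longest of 10 length groups. The listed genes with the most similar centred pattern over these 8 libraries were pgp-14 for cpr-5 (r = 0.99), F47B8.2 for cpr-4 (r = 0.99) and snr-6 for cpr-3 (r = 0.93), each the best of 991 genes, and the heat shock gene hsp-16.1 was next for cpr-4 (r = 0.95).

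The fasting effect was set against itself at the 2 temperatures for the 3 genes with counts in both tables, in one fit over the 410 genes listed in both. 0 of the 3 differed, where 4.63% of the 410 genes did at an adjusted p under 0.05 from edgeR, and 0 of 3 had an unadjusted p under 0.05. The difference, heat shock minus 20°C, was -0.31 on the log2 scale for cpr-5 (95% interval -1.04 to 0.41), -0.37 for cpr-4 (-1.11 to 0.38) and 0.04 for cpr-3 (-0.59 to 0.67), each with an adjusted p of 0.998 from edgeR. The intervals of cpr-4 and cpr-3 are wide enough to hold differences of the size of their 20°C effects (0.93 and 0.41). That of cpr-5 does not reach the size of its 20°C effect (1.13), but holds the size of its effect after heat shock (0.81).

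Heat itself was measured for the same 3 genes as CPM, computed from the raw counts and library reads, since the tables were normalized separately. cpr-3 averaged 24.9 ± 3.58 CPM after heat shock and 13.5 ± 1.78 CPM at 20°C in fasted worms, and 18.5 ± 5.12 and 10.33 ± 1.48 CPM in fed worms (SD, n = 4 each), ratios of 1.84 and 1.79. Heat-shocked and basal libraries were apart in both, with an exact permutation p of 0.029 (two-sided, 0.086 after adjustment over the 6 tests). In fasted worms, cpr-4 averaged 260.2 ± 59.6 CPM after heat shock and 385 ± 125 CPM at 20°C (ratio 0.676, exact permutation p = 0.14), and cpr-5 302 ± 55.2 and 447 ± 113 CPM (ratio 0.676, exact permutation p = 0.057). In fed worms the ratios were 0.871 for cpr-4 (exact permutation p = 0.40) and 0.841 for cpr-5 (exact permutation p = 0.46). So 0 of 6 comparisons passed after adjustment, and 2 of 6 at an unadjusted p under 0.05, both of cpr-3. A p of 0.029 is the smallest that 4 libraries against 4 allow. It could pass after adjustment only if most of the 6 tests reached it, so the count of 0 says little about cpr-3. Basal and heat-shocked libraries are not stated to have been made together, so a batch between the tables and heat cannot be told apart.

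**Figure D5:**
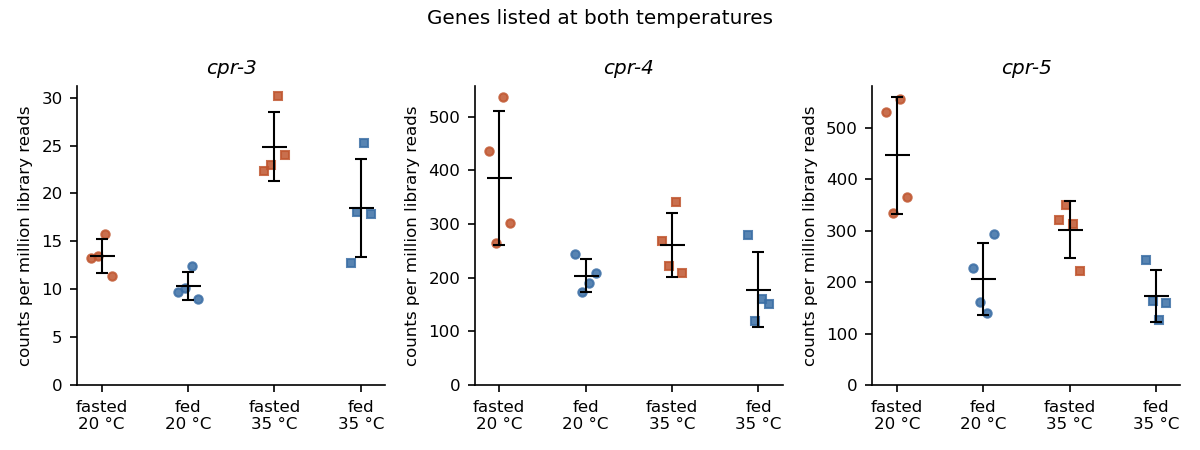
CPM (counts scaled to the total reads of the library) of cpr-3, cpr-4 and cpr-5 in fasted and fed worms at 20°C (circles) and after heat shock at 35°C (squares), each point a library, with the mean ± SD of 4. For cpr-3 all heat-shocked libraries lie above the basal libraries of the same feeding group, and for cpr-4 and cpr-5 the groups overlap between temperatures.

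After heat shock, of the other protease and lysosome genes, asp-3, an aspartic protease gene of the cathepsin D family, had a log2 fold change of 0.27 (SE 0.11, adjusted p = 0.64 from edgeR), and F15D4.4, of the cysteine class, of 0.83 (SE 0.34, adjusted p = 0.62 from edgeR). Of the 13 carboxypeptidase and legumain genes 4 were listed, 2 with higher means (pcp-4, 0.59, SE 0.21, and ctsa-1.2, 0.35, SE 0.16) and 2 with lower means (pcp-2, -0.62, SE 0.18, and pcp-3, -1.14, SE 0.53), on the log2 scale. Of the 20 membrane and traffic genes, mon-2 and vps-18 were listed, with log2 fold changes of -0.17 (SE 0.06) and -0.23 (SE 0.09), which turned positive with the length correction. None of the cystatin and transcription factor genes was listed. 0 genes of these lists passed with edgeR, DESeq2 or limma, and 6 of the 8 that are not among the 7 cathepsin genes had an unadjusted p under 0.05 from edgeR. With the replicate block and length correction together, asp-3, F15D4.4, pcp-4 and ctsa-1.2 passed, all higher (adjusted p = 0.011, 0.049, 0.020 and 0.029 from edgeR), beside cpr-4 and cpr-5. That setting called 246 of the 1442 listed genes higher and 58 lower, and moved the median of all listed genes by 0.28 (log2). Replicate numbers after heat shock were not taken as pairs, so the block has no basis there.

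Tissue markers listed after heat shock fell short of an adjusted p under 0.05 from edgeR as well (0 of 11 passed, 9 of 11 at an unadjusted p under 0.05), while DESeq2 called abu-14 lower. Of the pharynx markers 2 of 7 were listed, abu-14 and phat-2, with a median log2 fold change of -2.83. Their reads were few, 0.282 to 0.918 CPM in fasted and 0.820 to 7.33 CPM in fed worms, and these ranges overlapped. Of the hypodermis markers 4 of 6 were listed, where the collagen genes sqt-3, dpy-7 and dpy-13 had lower means in fasted worms and col-19 a higher one, and their reads summed to 172 to 738 CPM in fasted and 131 to 419 CPM in fed worms. The intestine had 2 of 11 listed, both with lower means, body wall muscle 1 of 8 and neurons 2 of 8, all with higher means, and germline and coelomocytes 0 of 11 and 0 of 3. The part of these differences in the cathepsin values was not tested.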

How the data were processed

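Whole N2 worms were sequenced in 4 groups of 4 libraries. The authors mapped paired-end reads with HISAT2 2.0.5 (WBcel235) and deposited raw counts per gene from featureCounts 1.5.0-p3. The signal values are normalized counts, for which the authors scaled the counts with DESeq2 size factors (0.842 to 1.33 at 20°C, 0.919 to 1.24 after heat shock). The authors also deposited FPKM, which relates each count to gene length and library reads. The log2 fold changes and p-values in the deposited tables are the authors' own results and were not used, except that the p-values gave the number of genes they had adjusted over.

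Library reads were recovered from count, FPKM and length. Listed genes held 14.2% to 16.1% of these at 20°C and 17.3% to 23.0% after heat shock. Raw counts were tested with edgeR 4.0.16 (quasi-likelihood, R 4.3.3) with the authors' size factors, and Benjamini-Hochberg adjustment ran over 14982 (20°C) or 15456 (heat shock) genes, with unlisted genes entered as a p of 1. The fits held only listed genes, so the spread was estimated from genes selected by their p in the same contrast. The effect of this on the p-values was not tested. A gene was called at an adjusted p under 0.05. The difference between temperatures was tested as an interaction in the 410 genes that both tables list, scaled by library reads. Single genes were compared by exact permutation tests (Python 3.11.15, numpy 2.4.6, pandas 2.3.3, scipy 1.17.1). The edgeR fits of fasted against fed worms and of the interaction were tested on simulated counts. The alternatives named below were not. The simulated counts had the same spread setting for every gene and many unchanged genes. They therefore do not test the fits on genes selected by p, as the listed genes were.

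The cathepsin genes, the other lists and the tests were chosen with earlier results of these data known. Named are the 7 genes, up to 4 listed genes per list and table with the smallest p, and for each of the 7 the 3 genes with the most similar pattern. cpr-8 and the ratios between genes were added after their values were seen. Gene names came from RefSeq for 2638 of 2666 and 1418 of 1442 genes. Exons and overlapping genes came from the Ensembl annotation of the same build, whose member starts and ends differed from the tables by at most 43 bases. After subtraction of group means, same-numbered libraries at 20°C correlated at 0.18, 0.14, 0.35 and 0.12, all over the bound of 0.1 for taking replicate numbers as pairs, so the block is given there. This pairing comes from the data and not from the design. It is uncertain for replicate 2, which correlated at up to 0.31 with a library of another number. After heat shock they correlated at 0.29, 0.08, 0.30 and 0.35, and the numbers were not taken as pairs. The alternatives included other scalings, DESeq2 1.42.0 on the counts, limma 3.58.1 on log2 FPKM with a pseudocount of 1 or 0.1, a filter on low counts, the replicate block, length corrections, other adjustments, and each library left out.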

Additional observations from a re-analysis of the deposited data

Results flagged for a closer look

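After heat shock, cpr-3 had 579 normalized counts in fasted replicate 3, while the other fasted libraries held 432 to 453. Its gap to the nearest of them took up 0.860 of the group's range, over the 95% critical value of Dixon's test for 4 libraries. This was 1 of 20 groups examined, and chance alone would flag about 1 in 20. Without that library the log2 fold change of cpr-3 was 0.35 (SE 0.20, adjusted p = 1 from edgeR).

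The fasting effect on pcp-3, a lysosomal carboxypeptidase family gene, differed between the temperatures by -2.19 on the log2 scale, heat shock minus 20°C (SE 0.61, adjusted p = 0.049 from edgeR over the 410 genes listed in both tables, 0.041 with the replicate block). At 20°C it had 1064, 919.7, 459 and 1214 normalized counts in fasted replicates 1 to 4, against 458, 304, 397 and 564 in the fed replicates. After heat shock it had 116, 83.9, 87.7 and 54.03 in fasted worms, against 439, 117, 63.1 and 133 in fed worms. Without fed heat shock replicate 1 the difference was -1.39 (adjusted p = 0.15 from edgeR), and leaving out single libraries it passed in 3 of 16 fits. It had an adjusted p of 0.062 with the length correction, 0.063 with the authors' size factors and 1 when adjusted over all genes (all from edgeR).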

How the results depend on the processing

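At 20°C, 3 of 7 cathepsin genes passed. The count was 6 with DESeq2, 6 with the replicate block and 6 with the replicate block and length correction. It was 0 when adjusted over all 46926 RefSeq genes, 0 of the 3 genes fitted with all 4 groups together, and 0 to 2 with each library left out. The fit of all 4 groups held only the 410 genes listed at both temperatures. Its adjustment still ran over 14982 genes, with all others entered as a p of 1, so it could call few genes. In it cpr-5 had an unadjusted p of 0.00041 from edgeR, against 0.00096 in the fit of the 20°C libraries. The unadjusted p from edgeR rose for the other genes, to 0.0024 from 0.00090 for cpr-4 and to 0.059 from 0.032 for cpr-3. The other settings gave 2 to 4, but not the same genes. With TMM, DESeq2 size factors over the listed genes or the length correction, asp-4, asp-5, cpr-1 and cpr-6 passed and cpr-4 and cpr-5 did not, and limma lost cpr-4. After heat shock the count of 0 became 1 with the length correction and 2 with the replicate block and length correction, and stayed at 0 in the other settings, the replicate block alone included. For the difference between temperatures the count was 0 throughout. Its sign turned for cpr-4 (0.10) and cpr-5 (0.074) with the length correction, and for cpr-3, which ran from -0.10 to 0.23 with each library left out. The heat shock change of mon-2 turned to 0.24 with the length correction (0.25 with the block added) and that of vps-18 to 0.18 in both. The cause of these turns was not tested.

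Over all genes at 20°C, edgeR called 368 (288 higher, 80 lower), DESeq2 874, the block 686 and the adjustment over RefSeq genes 117, with 107 to 468 with each library left out. The fit of all 4 groups, which held only 410 genes, called 2. TMM over the listed genes called 156 higher and 152 lower, DESeq2 size factors over them 145 and 595, the length correction 234 and 317, and the block with length correction 366 and 657. The second scaling and the length correction moved the median fold change of all listed genes by -0.39 and -0.29 (log2). After heat shock the count of 0 (1133 at an unadjusted p under 0.05) was 51 with DESeq2, 1 and 2 with limma, 22 with the length correction and 304 with the block added. The difference between temperatures passed for 19 of 410 genes, for 0 when adjusted over all genes (33 at an unadjusted p under 0.05), and for 5 to 20 with each library left out. The exact permutation tests of fasted against fed worms passed for 5 of 10, and for 2 to 6 with each library left out, lowest without fed 20°C replicate 1 or 3. Those of heat passed for 0 of 6 throughout, where the smallest possible p of 0.029 could pass after adjustment only if most of the 6 tests reached it. 4 libraries per group limit what can be called, and genes outside the tables have no values here.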
